A study of Mus musculus with 6 samples.

Results

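Long noncoding RNAs are transcripts that act without being translated, and the brain carries several at very high levels. The 8 described here are *Meg3*, *Rian*, *Miat*, *Snhg11*, *Malat1*, *Neat1*, *H19* and *Peg13*. They were taken by gene symbol from the 46078 genes counted in each library, and all 8 passed the filter on low counts, which left 15554 genes for testing. The libraries compared the chronic stroke infarct with the equivalent region of the contralateral cortex, to ask which transcripts differ in the infarct after ischemic stroke. All tissue came from wild-type C57BL/6J mice, labelled as 3 months of age, at 7 weeks after distal middle cerebral artery occlusion with hypoxia, with 3 infarct and 3 contralateral cortex libraries. Male mice were used in the study. Both regions thus came from animals that had a stroke, and no library from an uninjured brain was analysed here. Infarcts were identified by eye and cut out, so their border with living cortex was set by dissection. The labels do not say whether libraries of a region came from separate animals, or whether infarct and contralateral libraries came from the same animals. The p-values therefore measure the spread between these libraries only.

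These RNAs work in different ways. *Meg3*, *Rian* and *Peg13* are expressed from the maternal or the paternal chromosome only, as is *H19*, and such imprinted RNAs lie in clusters with imprinted protein-coding genes. *Malat1* collects in nuclear speckles, bodies rich in splicing factors, and *Neat1* is the scaffold around which the nuclear bodies called paraspeckles assemble. *Miat*, also known as *Gomafu*, is a nuclear RNA of neurons, and *Snhg11* hosts small nucleolar RNAs in its introns.

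By level per exon length, the label of abundant brain RNAs held for most members in the contralateral cortex and failed for *Neat1* and *H19*. Counts scaled to a common library size (CPM) were divided by exon length (RPKM, per kilobase of all annotated exons), since levels of different genes compare only per length, and were ranked among 8269 genes, which were the members and all genes annotated as long noncoding. In the contralateral cortex *Snhg11* ranked 2 at 128 ± 56.2 RPKM (SD, n = 3), *Malat1* 3 at 128 ± 60.7, *Peg13* 4 at 98.6 ± 20 and *Meg3* 5 at 95.9 ± 40.8, and these neighbors in the order did not differ beyond their spread. *Rian* followed at rank 12 with 34.2 ± 6.95 RPKM and *Miat* at rank 21 with 17.0 ± 8.15 RPKM. *Neat1* ranked 1095 at 0.446 ± 0.185 RPKM and *H19* ranked 2432 at 0.0976 ± 0.0394 RPKM. The RPKM of *Neat1* used all 20771 exon bases, the length of its long form, although its polyadenylated short form has 3004 bases. Its RPKM and rank may therefore be too low. By CPM, *Neat1* ranked 138 and *H19* 1961 in the contralateral cortex, and *Neat1* ranked 6 and *H19* 22 in the infarct. In the infarct *Malat1* ranked 1 at 106 ± 43.6 RPKM. *Peg13* came next among the members with 26.9 ± 2.84 RPKM, and *Snhg11*, *H19* and *Meg3* lay between 13.0 and 18.2 RPKM, within the spread of one another. *Neat1* at 6.21 ± 4.15, *Rian* at 5.0 ± 3.06 and *Miat* at 3.75 ± 3.01 RPKM were the lowest members by RPKM. They did not differ from each other beyond their spread, with the same limit for the length of *Neat1*. *Snhg11* is annotated as protein-coding in the GENCODE release used here, and the other 7 are annotated as noncoding.

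The libraries were made from polyadenylated RNA, so the 3′ ends of the nuclear RNAs are shown first. *Malat1* and the long form of *Neat1* are known to end without a poly(A) tail, at a cleavage site that follows a stretch rich in A encoded in the genome, while the short form of *Neat1* is polyadenylated. In *Malat1*, transcript positions 6674 to 6685 of 6983 are an unbroken run of 12 A, shown in capitals within positions 6589 to 6700. The long *Neat1* transcript of 20771 bases ends in a tract rich in A (last 11 bases in capitals), and the short one of 3004 bases holds the polyadenylation signal AATAAA at positions 2985 to 2990 (capitals). *Miat* is known for copies of the heptamer TACTAAC, the sequence of the yeast branch point. Its longest transcript, of 9163 bases, holds 6 copies on the sense strand, 3 of which are shown in capitals (positions 5584 to 5634). Counting *Miat* itself, 2 of 13374 genes annotated as long noncoding (0.015%) have a transcript with at least as many. Among the 223 long noncoding transcripts of 5000 bases or more, 2 (0.897%), that of *Miat* included, have at least as many copies and 18.4% have at least 1. All are written 5′ to 3′ from the GRCm38 transcripts.
Malat1, A-rich run: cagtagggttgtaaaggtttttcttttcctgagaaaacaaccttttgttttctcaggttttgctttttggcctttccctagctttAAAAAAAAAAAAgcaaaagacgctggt
Neat1, end of the long form: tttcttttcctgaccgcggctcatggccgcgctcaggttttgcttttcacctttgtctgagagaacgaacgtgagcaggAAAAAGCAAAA
Neat1, end of the short form: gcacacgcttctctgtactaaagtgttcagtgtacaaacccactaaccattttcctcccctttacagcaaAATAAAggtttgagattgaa
Miat, TACTAAC repeats: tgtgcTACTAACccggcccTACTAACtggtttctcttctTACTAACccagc

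Sequences are also given for a *Meg3* promoter and for the microRNA made from *H19*. The *Meg3* promoter is shown from 250 bases before to 50 bases after the upstream of its RefSeq starts (GRCm38.p6, chr12:109540746-109541045, plus strand). It holds the cyclic AMP response element TGACGTCA, which ends 49 bases before the start, and TATAAA, which ends 19 bases before it (both in capitals, searched on both strands, so that the capitals also cover the overlapping reverse match of TATAAA). TGACGTCA is present in 1.79% of 32851 promoter windows of the same length, TATAAA in 13.6%, and both in 0.17%. The *Meg3* window has 13 CpG dinucleotides against a median of 7 over all windows. The window of the other RefSeq start of *Meg3* (chr12:109545148-109545447), not shown, has 1 CpG and neither motif. Any part of the promoter in the levels of *Meg3* or its neighbors was not tested. *H19* is the precursor of a microRNA, miR-675, which lies in an exon on the minus strand (GRCm38, chr7:142577112-142577133 for the 5p arm and chr7:142577078-142577099 for the 3p arm). Its mature arms have different seeds (bases 2 to 8, in capitals). The counts below are of the long transcripts, and mature microRNAs are not measured in such libraries.
Meg3 promoter: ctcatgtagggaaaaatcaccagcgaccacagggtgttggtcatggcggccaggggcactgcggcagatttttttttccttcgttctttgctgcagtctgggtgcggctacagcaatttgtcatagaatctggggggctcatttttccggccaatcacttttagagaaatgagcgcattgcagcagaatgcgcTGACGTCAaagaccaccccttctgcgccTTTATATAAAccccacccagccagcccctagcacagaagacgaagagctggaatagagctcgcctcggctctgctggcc
mmu-miR-675-5p: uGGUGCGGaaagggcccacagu
mmu-miR-675-3p: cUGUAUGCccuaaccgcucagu

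In the infarct, *H19* and *Neat1* rose, *Meg3*, *Rian*, *Snhg11* and *Peg13* fell, and *Miat* and *Malat1* did not pass the test. A gene was called at an adjusted p under 0.05 (edgeR quasi-likelihood test, Benjamini-Hochberg over all genes tested) with a change of more than 2-fold. The 6 calls among 8 members stand against 46.6% of all genes tested and 48.9% of the 1060 tested long noncoding genes. By direction, 2 members were higher, against 25.7% of all tested genes and 11.3% of long noncoding genes, and 4 were lower, against 20.9% and 37.5%. The median log2 fold change was −2.03 over the members, −0.64 over long noncoding genes and 0.03 over all tested genes. In 7 of 8 members the regions did not overlap, as in 72.3% of all tested genes. The library totals on genes were 12146959 to 13427057 counts in the infarct and 11943570 to 19933962 in the contralateral cortex, and the 8 members took 0.102% to 0.216% of them in the infarct and 0.290% to 0.579% in the contralateral cortex.

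**Figure D1:**
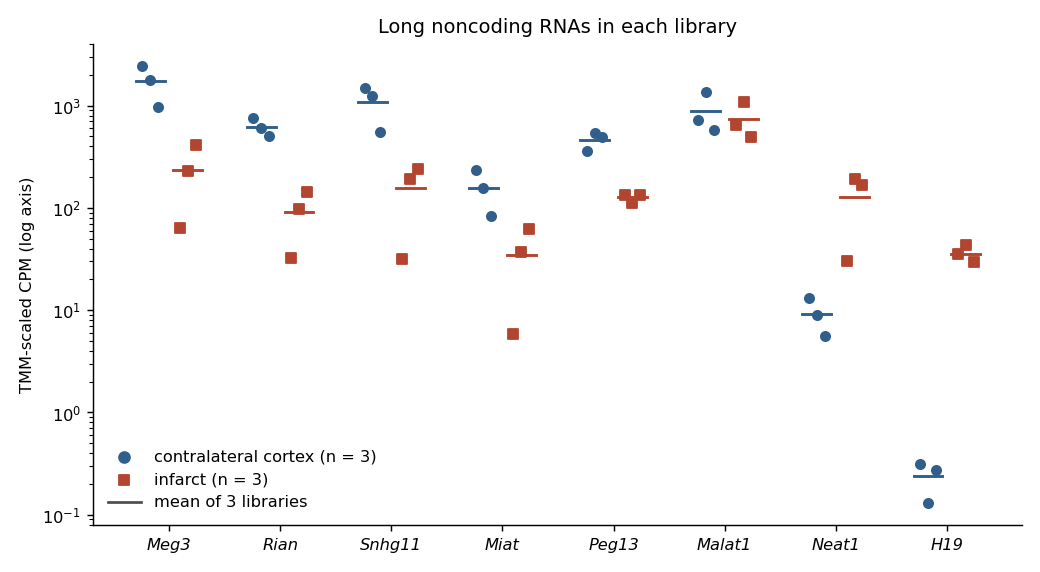
Levels of the 8 long noncoding RNAs in CPM after TMM scaling (log axis), in 3 contralateral cortex libraries (blue circles) and 3 infarct libraries (red squares), drawn from left to right as libraries 1, 2 and 3 of each region, with lines at the means. Symbols of the regions are apart for every gene but *Malat1*, and *H19* moves from below 1 CPM to 29.3 CPM or more.

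The composition of the tissue differed strongly between the regions. All 8 neuron markers fell (median log2 fold change −2.90), and their summed level was 621 to 1635 CPM in the infarct and 8863 to 9586 CPM in the contralateral cortex. All 8 fibroblast markers and all 8 microglia and macrophage markers rose, with medians of 6.44 and 4.75, and the summed fibroblast level was 7235 to 9047 CPM against 180 to 223 CPM. Of the 8 astrocyte markers 2 rose and 1 fell, and 5 of 8 endothelium markers rose. The astrocyte markers that fell numbered 2 without contralateral cortex 1 or 2 or without infarct 3. They also numbered 2 with limma voom, with upper quartile scaling and with the replicate number as a block, and 3 with no fold required. Of the 8 oligodendrocyte markers 4 rose, a count that was 7 without infarct 1 or with library totals and 2 in the test against a 2-fold change. The defining choroid plexus marker *Ttr* was at 0 in all contralateral libraries and at most 0.22 CPM in the infarct, although 3 of 5 tested markers of that list rose, and 6 did without infarct 2. Of the skeletal muscle list only *Acta1* passed the filter, and it fell from 10.4 to 0.529 CPM on average. The other muscle markers were below 1 CPM on average in both regions, and *Tnnt3*, *Mylpf* and *Tnni2*, named after their values were seen, had higher means in the infarct. In bulk tissue, fewer cells of a type and less RNA per cell cannot be told apart.

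*Meg3* (ENSMUSG00000021268, GRCm38 chr12:109541001-109571726, plus strand), a maternally expressed RNA of the *Dlk1*-*Meg3* cluster, was among the most abundant long noncoding RNAs of the contralateral cortex and fell in the infarct. Its levels were 2449, 1778 and 975 CPM in contralateral cortex 1, 2 and 3 and 63.5, 228 and 415 CPM in infarct 1, 2 and 3. The regions did not overlap, but infarct 1 lay far below the other infarcts and contralateral cortex 3 far below contralateral cortex 1. The means were 235 ± 176 CPM (SD, n = 3) and 1734 ± 738 CPM, a log2 fold change of −2.88 (SE 0.71, 95% interval −4.60 to −1.16, edgeR adjusted p = 0.0111). Without infarct 3 the log2 fold change was −3.56 and without infarct 1 it was −2.42, and the call held when any of the 6 libraries was left out but was lost without a filter on low counts (edgeR adjusted p = 0.0632).

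*Rian* (ENSMUSG00000097451, chr12:109603940-109661716, plus strand), which lies downstream of *Meg3* on the same strand and hosts small nucleolar RNAs and microRNAs, fell alongside it. It stood at 757, 605 and 506 CPM in the contralateral cortices and at 32.2, 98.1 and 143 CPM in the infarcts. No infarct library came near the contralateral levels, and infarct 1 was again the lowest. The change on the log2 scale was −2.77 (SE 0.52, edgeR adjusted p = 0.00252), and it was −3.24 without infarct 3. Counted against *Meg3* in the same library, *Rian* stood at 30.9%, 34.1% and 51.8% in the contralateral cortices and 50.7%, 43.1% and 34.5% in the infarcts. These shares overlapped, and their mean log2 values differed by 0.16 between the regions (exact two-sided permutation test, p = 0.7, where 3 against 3 libraries cannot go below 0.1).

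The rest of the cluster moved the same way wherever it could be tested. All 5 tested genes of the 7 in the *Dlk1*-*Meg3* list, *Meg3* and *Rian* included, fell, against 20.9% of all tested genes. *Mirg*, a noncoding RNA that hosts a microRNA cluster, changed by −2.67 (SE 0.42, edgeR adjusted p = 0.000607). The paternally expressed *Rtl1*, which derives from a retrotransposon and lies antisense to microRNAs of the maternal strand, changed by −2.39 (SE 0.29), and *Begain*, a postsynaptic protein gene at the edge of the domain, by −3.32 (SE 0.41). The paternally expressed ligand gene *Dlk1* and the deiodinase gene *Dio3* were below the filter and were at most 1.88 CPM and 0.912 CPM in any library. The tested genes with profiles nearest to *Meg3* over the 6 libraries, by the root mean square difference of centered log2 CPM, were *Gm26945*, an RNA annotated within *Rian* on the same strand, at 0.21 and *Snhg11* at 0.23, where the median gene lay at 1.83. The nearest to *Rian* were *Mirg* at 0.11 and *Gramd2* at 0.12, where the median gene lay at 1.67.

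**Figure D2:**
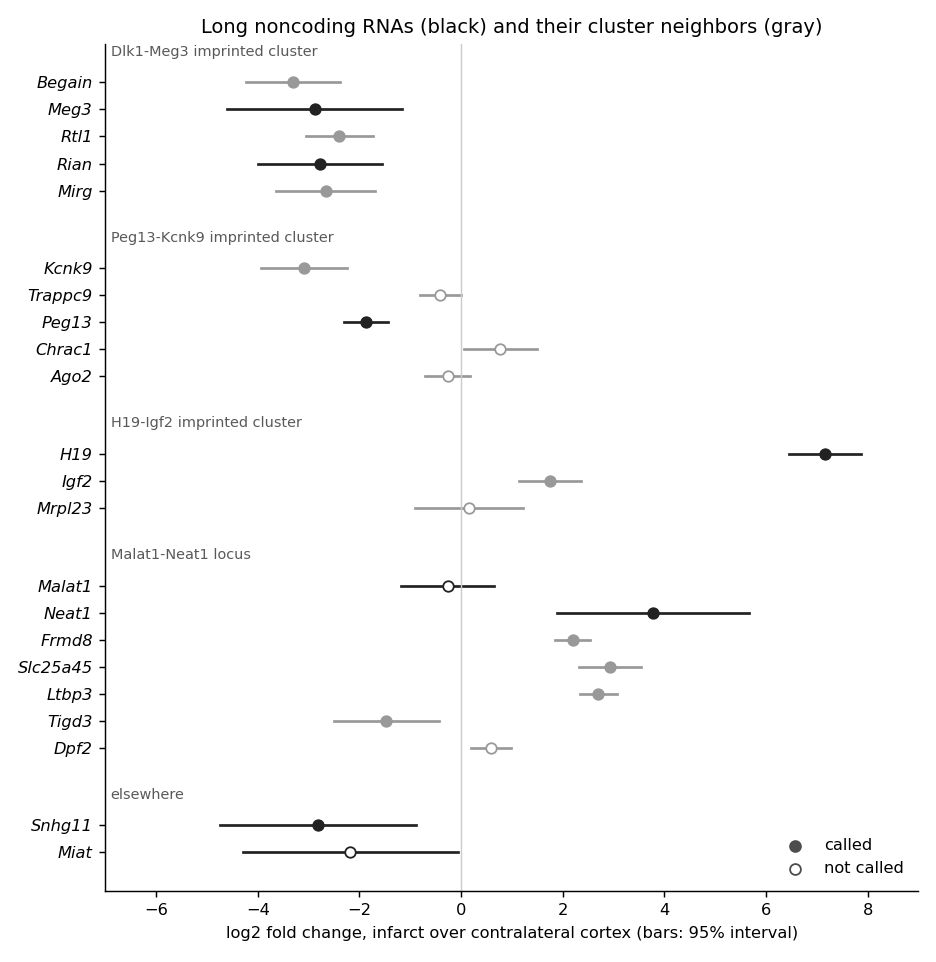
Log2 fold change (infarct over contralateral cortex) with its 95% interval for the 8 long noncoding RNAs (black) and tested neighbors of their loci (gray), grouped by locus, with filled symbols for called genes. The 5 genes of the *Dlk1*-*Meg3* cluster all lie below 0, between −3.32 and −2.39, whereas members of the other loci are spread to both sides.

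*Snhg11* (ENSMUSG00000044349, chr2:158375638-158386145, plus strand), in the adult brain mostly a neuronal transcript, fell by a similar amount with more spread. Its levels were 1479, 1245 and 558 CPM in the contralateral cortices and 31.9, 191 and 243 CPM in the infarcts. The regions did not overlap, and the same libraries as for *Meg3* stood at the extremes. The log2 fold change was −2.82 (SE 0.79, 95% interval −4.74 to −0.89, edgeR adjusted p = 0.0199). This call was lost when any of 3 libraries was left out, with log2 fold changes of −2.98 without infarct 2 (edgeR adjusted p = 0.0523), −3.28 without infarct 3 (0.0705) and −2.55 without contralateral cortex 1 (0.0565).

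Other hosts of small nucleolar RNAs were examined beside *Snhg11*. Of 20 listed hosts 16 were measured and 12 passed the filter, of which 1 was called higher, 2 lower and 9 neither, with a median log2 fold change of 0.08, where 25.7% of all tested genes were higher and 20.9% lower. The lower calls were *Snhg11*, whose loss took the count to 1 without infarct 2 or contralateral cortex 1, and *Snhg14*, the long paternal transcript of the *Snrpn* and *Ube3a* region, at −2.91 (SE 0.37, edgeR adjusted p = 0.000244). *Snhg18* rose by 3.14 (SE 0.24). *Gas5*, a widely expressed host, changed by 0.41 (SE 0.24, edgeR adjusted p = 0.152).

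*Miat* (ENSMUSG00000097767, chr5:112213228-112229395, minus strand) was lower in every infarct than in any contralateral cortex but did not pass the test. Its levels were 235, 156 and 83.5 CPM in the contralateral cortices and 5.89, 36.9 and 61.6 CPM in the infarcts. The gap between infarct 3 and contralateral cortex 3 was small next to the more than 10-fold range among the infarcts (ratio of highest to lowest 10.5). The log2 fold change was −2.18 (SE 0.85, 95% interval −4.30 to −0.06, edgeR adjusted p = 0.0675). Without infarct 1 the change was smaller, −1.67, but the spread was smaller too and the gene passed (edgeR adjusted p = 0.0329), and DESeq2 on all libraries gave an adjusted p of 0.0325. Without infarct 3 it was −2.87. Exons annotated on the other strand overlap 24.3% of the exon bases of *Miat*, and exons of other genes on its own strand overlap 7.74%. The strand setting of the counting is not given in the sources used here. Reads from the other strand and reads of *Miat* may therefore not have been told apart there. Relative to *Snhg11* in the same library, *Miat* stood at 12.6% to 15.9% in the contralateral cortices and at 18.5% to 25.4% in the infarcts, a difference of 0.54 in mean log2 ratio (exact two-sided permutation test, p = 0.1, the smallest possible).

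*Peg13* (ENSMUSG00000106847, chr15:72805600-72810324, minus strand), a paternally expressed RNA within an intron of *Trappc9*, fell with little spread. It was at 360, 541 and 497 CPM in the contralateral cortices and at 134, 111 and 135 CPM in the infarcts. The regions were well apart and the infarcts lay within 1.21-fold of each other. This was a log2 fold change of −1.88 (SE 0.19, edgeR adjusted p = 2.0e-05), and it kept its call under all 16 alternatives.

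Around *Peg13* the genes did not move as one. *Kcnk9*, a potassium channel gene that is maternally expressed in brain, fell by 3.09 on the log2 scale (SE 0.38, edgeR adjusted p = 6.4e-05), from 4.71 to 7.36 CPM down to 0.398 to 0.956 CPM. *Trappc9*, the host gene, changed by −0.41 (SE 0.18, edgeR adjusted p = 0.0724) and was not called, and neither were *Chrac1* (0.77) and *Ago2* (−0.26). Counted against *Trappc9* in the same library, *Peg13* was at 896%, 1265% and 953% in the contralateral cortices and at 347%, 405% and 381% in the infarcts. The shares did not overlap, and the log2 ratio was 1.45 lower in the infarct (exact two-sided permutation test, p = 0.1, the smallest possible). The nearest profiles were those of *Pcdhb5*, a clustered protocadherin gene, and *Usp32*, a deubiquitinase gene, both at 0.08, where the median gene lay at 1.02.

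The fall of the neuronal members was compared with that of neuron markers in the same libraries. The counts of *Meg3* amounted to 27.6%, 20% and 10.2% of the summed counts of the 8 neuron markers in the contralateral cortices and to 10.2%, 24.9% and 25.4% in the infarcts. The regions overlapped, with a difference in mean log2 ratio of 0.07 (exact two-sided permutation test, p = 0.9) and within-region SDs of 0.74 and 0.75. For *Rian* the difference was 0.22 (exact p = 0.6), for *Snhg11* 0.08 (exact p = 0.9) and for *Miat* 0.61 (exact p = 0.5). With SDs of 0.35 to 1.17 within regions, differences of this size were not detectable with 3 libraries each. *Peg13* stood apart from these, at 4.06%, 6.09% and 5.18% of the neuron markers in the contralateral cortices and 21.6%, 12.2% and 8.26% in the infarcts, 1.36 higher in log2 ratio. *Malat1* was 2.98, *Neat1* 6.72 and *H19* 10.31 higher on the same scale, and none of these 4 overlapped between the regions (exact two-sided permutation test, p = 0.1 each, 0.163 after Benjamini-Hochberg adjustment over the 13 ratios compared). The neuron markers summed to 8863 to 9586 CPM in the contralateral cortices and to 621 to 1635 CPM in the infarcts. A gene at equal CPM in both regions is therefore also higher on this scale. These 4 ratios show only that the members fell less than the markers or rose. How many of all tested genes would not overlap on this scale was not computed.

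**Figure D3:**
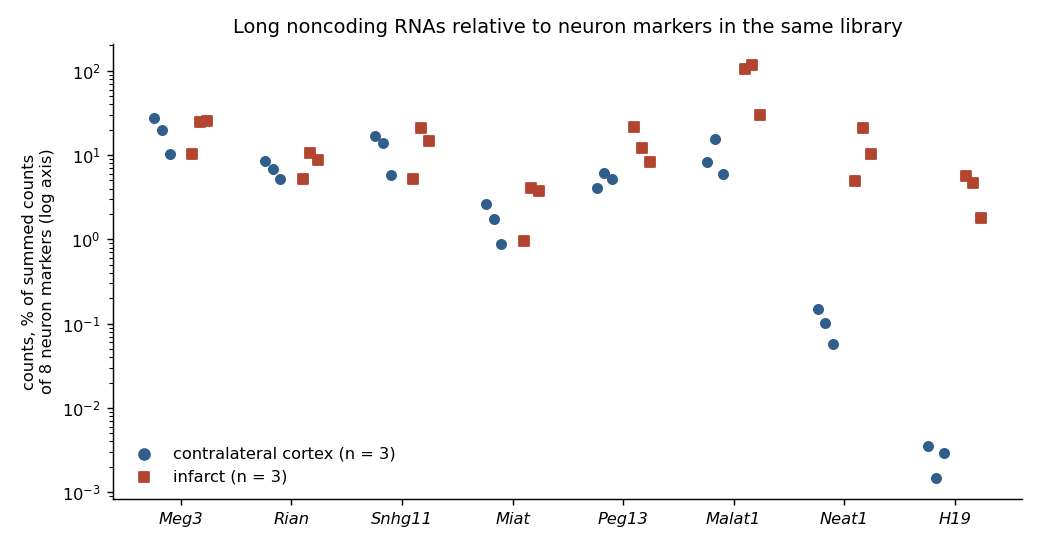
Counts of each long noncoding RNA as a percent of the summed counts of 8 neuron markers in the same library (log axis), with 3 contralateral cortex libraries (blue circles) and 3 infarct libraries (red squares). *Meg3*, *Rian*, *Snhg11* and *Miat* overlap between the regions, and *Peg13*, *Malat1*, *Neat1* and *H19* lie higher in the infarcts.

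*Malat1* (ENSMUSG00000092341, chr19:5795690-5802672, minus strand) was the member closest to equal levels in the regions. Its levels were 731, 1374 and 574 CPM in the contralateral cortices and 652, 1082 and 494 CPM in the infarcts. The regions overlapped, and library 2 was the highest in each. The log2 fold change was −0.27 (SE 0.39, 95% interval −1.17 to 0.64, edgeR adjusted p = 0.573), so that a change of somewhat more than 2-fold downward lies within the interval. Without contralateral cortex 2 the value was 0.18. The 12 nuclear speckle protein genes listed, among them *Son*, *Srrm2* and *Sf3b1* with the highest CPM, gave 0 calls with edgeR, DESeq2 and limma voom. For comparison, edgeR called 46.6% of all tested genes. The median log2 fold change of the 12 was 0.10, and 3 of them had an unadjusted p under 0.05. With no fold required, 5324 of all 15554 tested genes reached an edgeR adjusted p under 0.05 upward and 4787 downward. Of the 12 speckle genes, 2 did so. These were *Srsf7* (−0.69) and *Srsf2* (0.50), named here after their values were seen. Without infarct 2, 1 of the 12 was called lower. *Son*, a core scaffold protein of speckles, changed by 0.17 (SE 0.15, edgeR adjusted p = 0.333). The nearest profile to *Malat1* was that of *Zc3h3*, a zinc finger gene, at 0.17, where the median gene lay at 0.79.

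*Neat1* (ENSMUSG00000092274, chr19:5824708-5845478, minus strand), the neighbor of *Malat1*, rose. It was at 13.2, 9.05 and 5.54 CPM in the contralateral cortices and at 30.3, 190 and 167 CPM in the infarcts. Infarct 1 stood well below the other infarcts yet above every contralateral library. The log2 fold change was 3.78 (SE 0.77, 95% interval 1.89 to 5.67, edgeR adjusted p = 0.00572), with values from 3.41 without infarct 2 to 4.26 without infarct 1, and the call held in both cases. Counted against *Malat1* in the same library, *Neat1* was at 1.81%, 0.659% and 0.964% in the contralateral cortices and at 4.65%, 17.6% and 33.7% in the infarcts. These did not overlap and differed by 3.74 in mean log2 ratio (exact two-sided permutation test, p = 0.1, the smallest possible). The gene counts do not separate the short from the long form of *Neat1*.

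Genes of the proteins that join *Neat1* in paraspeckles gave no call. Of 12 listed genes 0 were called with edgeR, DESeq2 or limma voom, where edgeR called 46.6% of all tested genes. An unadjusted p under 0.05 was reached by 6 of the 12, and their median log2 fold change was −0.09. Their summed level was 1323 to 1493 CPM in the infarct and 1260 to 1413 CPM in the contralateral cortex. *Sfpq*, needed for paraspeckle formation, changed by −0.31 (SE 0.17, edgeR adjusted p = 0.138) and *Hnrnpk* by 0.40 (SE 0.15, edgeR adjusted p = 0.0342, below the required 2-fold). With no fold required, an edgeR adjusted p under 0.05 was reached by 5 of the 12, *Nono*, *Hnrnpk* and *Hnrnpm* upward and *Nudt21* and *Cpsf6* downward, named here after their values were seen. Of all 15554 tested genes, 5324 reached it upward and 4787 downward. Among further genes near the locus, *Frmd8* (2.19), *Ltbp3* (2.70), a latent TGF-β binding protein, and *Slc25a45* (2.93) were called higher and *Tigd3* (−1.47) lower, a call that was lost without infarct 1, infarct 2 or contralateral cortex 1, while *Dpf2* (0.59) was not called. The nearest profile to *Neat1* was that of *Arg1*, arginase 1 of macrophages, at 0.42, where the median gene lay at 1.98. *Arg1* was at 0.876, 8.59 and 6.62 CPM in the infarcts and at most 0.157 CPM in the contralateral cortices.

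*H19* (ENSMUSG00000000031, chr7:142575529-142578143, minus strand), a fetal RNA of the imprinted *Igf2* cluster that is mostly silent after birth, had the largest change among the members. Its raw counts were 6, 2 and 3 in the contralateral cortices and 442, 586 and 429 in the infarcts. The levels were thus 35.2, 43.0 and 29.3 CPM in the infarcts and 0.313, 0.13 and 0.277 CPM in the contralateral cortices, close to the limit of detection there. In log2 terms the fold change was 7.16 (SE 0.32, edgeR adjusted p = 1.9e-07), 12th among the 120 long noncoding genes called higher. The summed counts of 1457 against 11 gave a ratio of 147 per unit of library size, with an exact 95% interval of 82.0 to 295 that covers counting error only. *H19* kept its call in all 15 alternatives in which it was tested.

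*Igf2*, the growth factor gene that shares enhancers with *H19* and is expressed from the opposite parental chromosome in most tissues, rose much less. It was at 125, 64.9 and 83.1 CPM in the contralateral cortices and at 367, 319 and 231 CPM in the infarcts, a log2 fold change of 1.75 (SE 0.27, edgeR adjusted p = 0.000376). *H19* thus stood at 0.25%, 0.201% and 0.333% of the counts of *Igf2* in the contralateral cortices and at 9.59%, 13.5% and 12.7% in the infarcts. The log2 ratio was 5.31 higher in the infarct (exact two-sided permutation test, p = 0.1, the smallest possible). *Mrpl23*, downstream of *H19*, changed by 0.16 (SE 0.47, edgeR adjusted p = 0.778), and *Ins2* was at 0 counts in all libraries. The nearest profile to *H19* was that of *Apobec1*, an RNA-editing enzyme gene, at 0.14, where the median gene lay at 3.30. *Apobec1* was at 138 to 184 CPM in the infarcts and 1.04 to 2.35 CPM in the contralateral cortices.

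Imprinted genes elsewhere in the genome were called in both directions. Of 24 tested in the list 5 rose, 9 fell and 10 were not called, with a median log2 fold change of −0.82, beside 25.7% higher and 20.9% lower among all tested genes. The largest increases were those of *Dcn* (6.43), a matrix proteoglycan that is also in the fibroblast list, *Cdkn1c* (2.78), a cell cycle inhibitor, *Igf2r* (2.39), the receptor that clears IGF2, and *Asb4* (2.0). The largest decreases were those of *Zdbf2* (−3.29), *Usp29* (−3.25), *Nap1l5* (−2.76) and *Peg3* (−2.53). Among 19 other long noncoding RNAs tested from a list of 26, 11 fell and 1 rose, with a median of −1.40, beside 37.5% lower and 11.3% higher among long noncoding genes. The number that rose was 3 without infarct 1 and 2 without contralateral cortex 1. The microRNA hosts *Mir124a-1hg* (−3.26) and *Mir124-2hg* (−2.89), precursors of the neuronal miR-124, were among the largest decreases, with *Snhg14* (−2.91) and *Cdr1os* (−2.67). *Dnm3os*, a host of microRNAs in mesenchymal cells, rose by 4.33 (SE 0.55, edgeR adjusted p = 0.000108). *Tug1*, among the highest of the list in CPM, was at 264, 301 and 256 CPM in the infarcts and 283, 310 and 309 CPM in the contralateral cortices and was not called (−0.13, SE 0.14, edgeR adjusted p = 0.431).

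Within each region, 5 of the 8 members varied between libraries in a common order. In *Meg3*, *Rian*, *Snhg11*, *Miat* and *Neat1*, contralateral cortex 1 was the highest and contralateral cortex 3 the lowest of its region, and infarct 1 was the lowest infarct. This order was picked from the values of the members, so their count of 5 is a description. The first order was present in 16.9% of all tested genes and 32.5% of long noncoding genes, the second in 36.9% and 53.8%, and both in 8.49% and 20.7%, and the same 5 members showed them in the unscaled share of gene counts. *Neat1* thus followed the library order of the RNAs that fell although it rose. *Peg13*, *H19* and *Malat1* did not have this order. Of the listed nuclear speckle genes 5 of 12 had it and of the paraspeckle genes 4 of 12. A pair of the speckle genes, singled out after their values were seen, show its size. *Pnisr* was at 163, 116 and 50.9 CPM in the contralateral cortices and 24.1, 85.8 and 71.1 CPM in the infarcts, and *Luc7l3* at 172, 161 and 93.5 CPM and 52.3, 120 and 86.4 CPM.

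**Figure D4:**
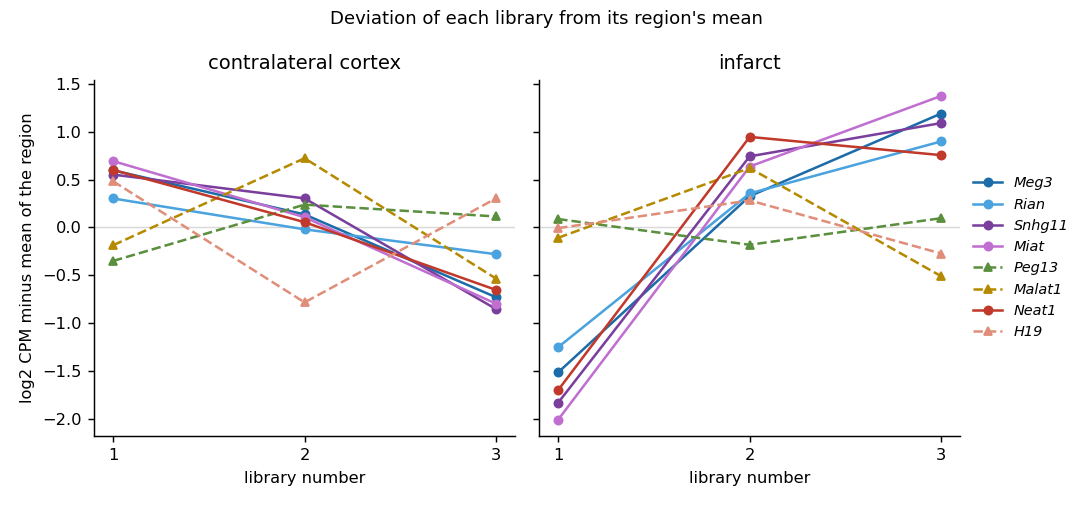
Log2 CPM of each library minus the mean of its region, for the 8 long noncoding RNAs, with contralateral cortex on the left and infarct on the right. Lines join values of one gene and the library numbers carry no order. Solid lines mark the 5 members with contralateral cortex 1 highest, contralateral cortex 3 lowest and infarct 1 lowest, and dashed lines mark *Peg13*, *Malat1* and *H19*.

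The spread of these 5 members was among the widest of all genes. It was measured by the biological coefficient of variation of edgeR, the square root of a gene's dispersion within regions, which had a median of 0.20 over all tested genes and 0.288 over long noncoding genes. It was 0.678 for *Miat*, 0.606 for *Snhg11*, 0.568 for *Neat1*, 0.551 for *Meg3* and 0.413 for *Rian*, higher than in 95.8% to 99.5% of tested genes. *Malat1* followed with 0.341, and *H19* at 0.201 and *Peg13* at 0.188 were ordinary. Some properties of the libraries followed the order in full or in part. The total on genes followed it, with 19933962, 16610299 and 11943570 counts in contralateral cortex 1, 2 and 3 and with 12146959 in infarct 1 below 12507336 and 13427057 in the other infarcts. The share of reads outside annotated exons was 8.67% in infarct 1 and 11.0% and 10.2% in the other infarcts, and 14.6%, 14.5% and 11.4% in contralateral cortex 1, 2 and 3. The summed neuron markers were also lowest in infarct 1 (621 CPM, against 914 and 1635), but they were highest in contralateral cortex 3. The part of any of these in the levels was not tested.

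**Figure D5:**
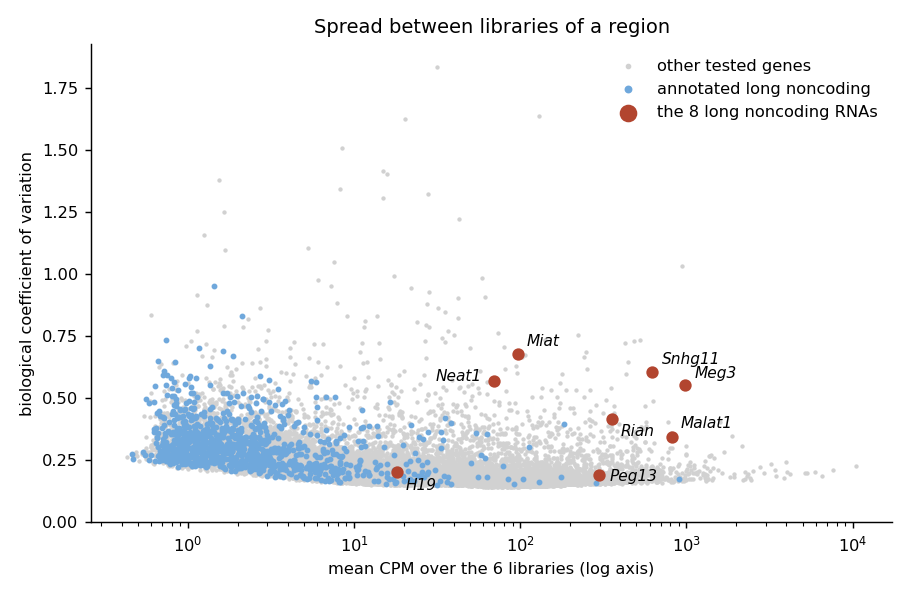
Biological coefficient of variation within regions against mean CPM over the 6 libraries (log axis) for 15554 tested genes, with annotated long noncoding genes in blue and the 8 members in red. *Miat*, *Snhg11*, *Neat1*, *Meg3* and *Rian* lie above 0.4, and *H19* and *Peg13* lie near 0.2 with most genes.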

How the data were processed

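Polyadenylated RNA of 3 infarct and 3 contralateral cortex samples was sequenced with a stranded kit. Per the submitters' processing notes, the tools were bcl2fastq 2.19, Trimmomatic 0.32, STAR 2.5.2b, HTSeq and DESeq2, with genome build GRCm38. The annotation release and the strand setting are not given in the sources used here. The deposited values are raw counts per Ensembl gene, not normalized by the authors. Each table also held 5 tally entries without a gene, which entered neither library sizes nor tests, and genes took 65.7% to 73.4% of all counts. Of 46078 identifiers 45229 matched GENCODE M21, which gave names, exons and biotypes, and promoters and microRNAs came from RefSeq. Some newer symbols were matched through RefSeq synonyms at overlapping positions.

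Counts were filtered with filterByExpr, scaled by TMM and tested with the quasi-likelihood test of edgeR 4.0.16 (R 4.3.3), with region as the only term. A call required an adjusted p below 0.05 and a log2 fold change beyond 1. Ratios within a library had 0.5 added to both counts and were tested by exact permutation. Data were simulated for 15303 genes, each with a biological coefficient of variation of 0.22. In these, 195 of 200 genes changed 4-fold were called, and 5 unchanged genes. The 5 members with a coefficient over 0.4 vary more than that, so this rate does not apply to them. The common biological coefficient of variation of the real libraries was 0.220. Alternatives used DESeq2 1.42.0, limma 3.58.1, other scalings, filters and fold thresholds, a replicate block, and each library left out. The members and the 17 gene lists were chosen with earlier results of these data known. Named genes were all members, genes of the cluster lists, and from other lists those with the largest called changes (up to 4 per direction) or highest levels (3), besides the 2 nearest profiles of each member and genes stated as chosen after their values were seen. Where a symbol had more than 1 identifier, the one with more counts was used. Not every listed gene is reported here.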

Additional observations from a re-analysis of the deposited data

How the results depend on the processing

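Directions and calls of *Rian*, *Neat1* and *Peg13* were kept under all 16 alternatives and those of *H19* under the 15 that tested it. The members called higher numbered 1 instead of 2 when at least 10 counts were required in every library, because *H19* was then not tested. The members called lower numbered 2 instead of 4 without a filter on low counts, where *Meg3* (adjusted p = 0.0632) and *Snhg11* (0.0842) were lost with edgeR, and 3 to 5 when libraries were left out. *Tigd3* and *Snhg11* were also lost with a test against a 2-fold change (edgeR glmTreat, adjusted p = 0.0544 for *Snhg11*), and *Tigd3* with the filter of 10 counts. *Miat*, not called as reported, passed with DESeq2 (0.0325), limma voom (0.00848) and the filter of 10 counts (0.048). Other genes of the 9 lists that are not markers, called higher, numbered 18 without a fold threshold, against 11. The log2 fold change of *Malat1* turned from −0.27 to 0.18 without contralateral cortex 2, and its range with libraries left out was −0.63 to 0.18. With libraries left out in turn, the log2 ratio to neuron markers ranged from −0.34 to 0.50 for *Meg3*, from −0.0023 to 0.52 for *Rian* and from −0.39 to 0.67 for *Snhg11*, so that their sign is not set by these data. Scaling by library totals shifted the median over all tested genes by 0.20 (log2) and turned the direction of no member. The cause of these changes was not tested unless stated.

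Infarcts and contralateral cortices share replicate numbers, which were not taken to pair the samples because the labels do not say so. Deviations of same-numbered libraries correlated at −0.19, 0.10 and 0.001, and those of other pairs at −0.24 to 0.18. With 3 libraries in each region, these values cannot decide whether the samples were paired. With the replicate number as a block, 2 members were called higher and 3 lower, with *Snhg11* lost (edgeR adjusted p = 0.0502), and 3945 genes were called higher and 3222 lower over all genes, against 3999 and 3256. At 2 to 6 counts per contralateral library, depth limits the size of the *H19* change, and the strongly varying members are limited by the spread of 3 libraries.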
